A study of Mus musculus with 12 samples.

Results

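The 9 genes Upf1, Upf2, Upf3a, Upf3b, Smg1, Smg5, Smg6, Smg8 and Smg9 encode the core factors of nonsense-mediated mRNA decay (NMD), and their transcripts were followed in mouse regulatory T cells (Tregs) that carried a tethered IL-2 or an empty vector. They were chosen by the level of Upf1, which was low in 3A10t Tregs, so the low level of Upf1 there is how the genes were selected and not a result. The choice drew on decreases from EV no IL-2 to 3A10t with an adjusted p under 0.05, a TPM averaging 5 or more and no overlap of the libraries, where Upf1 had rank 5 with a log2 fold change of −1.30. Atp2a2 at −1.38 and Fam91a1 at −1.36 stood just before it and Sbk1 at −1.15 just after it. The 9 genes are 9 of the 55228 gene symbols measured, and all 9 are among the 15043 that were abundant enough to be tested.

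NMD degrades mRNAs whose reading frame ends too early, and it also lowers a set of normal transcripts. Upf1 is the RNA helicase at the centre of the pathway. Upf2 and Upf3b, with the paralog Upf3a, connect Upf1 to the exon junction complex that splicing leaves on the mRNA. Smg1 is the kinase that phosphorylates Upf1, and Smg8 and Smg9 bind Smg1 and restrain it. Smg6 is the endonuclease that cuts the target mRNA near the stop codon, and Smg5 binds phosphorylated Upf1 and brings in deadenylation and decapping enzymes. In T cells the pathway is known for clearing transcripts of T cell receptor genes whose rearrangement was out of frame.

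All 4 groups were Tregs from lymph nodes of NOD.Foxp3-GFP mice, a diabetes-prone strain in which GFP reports Foxp3, and each group had 3 libraries. By the labels, CD4+ cells of 16 mice were pooled and divided into 3 parts, and the Foxp3-GFP+CD25+ cells of each part were sorted on a machine of its own and activated separately. The replicates are thus cultures of 1 pool and not separate animals, p-values measure the spread between these cultures, and a replicate number marks a shared sort. On day 2 after activation, cells were transduced with a retroviral vector that carries the surface reporter Thy1.1. EV cells carried the vector alone, 1G12t and 3A10t cells carried it with the orthogonal IL-2 variant 1G12 or 3A10 joined to the orthogonal IL-2 receptor β chain. On day 4, EV no IL-2, 1G12t and 3A10t cells were washed free of IL-2 and cultured for 5 more days, whereas EV+IL-2 cells stayed in medium with IL-2. Cells positive for Thy1.1 were sorted on day 9, and RNA was sequenced in bulk. Lower RNA per cell and fewer cells with the RNA cannot be told apart in bulk RNA.

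Values are TPM (a level per transcript length and library total), rescaled so that the median gene agrees between libraries. TPM keep no read number, so depth is unknown. Genes with a TPM above 0 numbered 30393 to 36239 per EV+IL-2 library. They numbered 39227 to 42422 per 3A10t library, 42088 to 43285 per 1G12t library and 37930 to 42150 per EV no IL-2 library. The EV+IL-2 counts were thus below all others. The part of this difference in the comparisons with EV+IL-2 was not tested. The rescaling factors ran from 0.854 for 3A10t replicate 2 to 1.09 for 1G12t replicate 3. On log2(scaled TPM + 1), libraries of 1 group had a median SD per gene of 0.22 for 3A10t, 0.15 for 1G12t, 0.11 for EV+IL-2 and 0.12 for EV no IL-2. The Treg markers Foxp3, Il2ra, Ctla4, Ikzf2 and Tnfrsf18 were high in every library, Foxp3 between 369 and 510. The 3 myeloid markers summed to at most 2.51 in any library and the 2 CD8 T cell markers to at most 6.51. The 3 B cell markers summed to at most 16.0. Of these 3, Cd79b was 6.75 to 13.3, Cd79a 0.935 to 2.22 and Ms4a1 at most 0.668. The B cell sum was 11.3 to 16.0 for 3A10t, 8.69 to 12.9 for 1G12t, 10.2 to 12.7 for EV+IL-2 and 8.34 to 9.95 for EV no IL-2, and the part of any such cells in the results was not tested.

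The promoters of Upf1, Upf2 and Upf3b are shown, the first because the choice of genes rests on it and the others as partners of Upf1 whose values are described below. Each is the 250 bases before the RefSeq transcription start, read 5′ to 3′ on the gene's strand from GRCm38.p6. Capitals mark matches on either strand to GGGCGG (the GC box), to TGCGCA (part of the NRF1 site) or to CCGGAA (the core of ETS factor sites). The Upf1 window is chr8:70353280-70353529 on the minus strand, the Upf2 window chr2:5951219-5951468 on the plus strand and the Upf3b window chrX:37110323-37110572 on the minus strand.

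Upf1: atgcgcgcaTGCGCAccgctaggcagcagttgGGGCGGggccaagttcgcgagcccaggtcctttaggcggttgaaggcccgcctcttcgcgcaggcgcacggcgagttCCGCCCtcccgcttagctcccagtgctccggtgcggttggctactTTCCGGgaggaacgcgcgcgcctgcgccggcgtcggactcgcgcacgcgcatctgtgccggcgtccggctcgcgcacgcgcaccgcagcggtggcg

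Upf2: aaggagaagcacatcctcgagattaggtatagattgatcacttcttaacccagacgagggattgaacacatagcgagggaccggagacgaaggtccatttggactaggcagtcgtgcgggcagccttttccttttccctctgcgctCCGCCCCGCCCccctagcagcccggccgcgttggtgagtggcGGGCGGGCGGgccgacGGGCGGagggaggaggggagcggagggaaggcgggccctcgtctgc

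Upf3b: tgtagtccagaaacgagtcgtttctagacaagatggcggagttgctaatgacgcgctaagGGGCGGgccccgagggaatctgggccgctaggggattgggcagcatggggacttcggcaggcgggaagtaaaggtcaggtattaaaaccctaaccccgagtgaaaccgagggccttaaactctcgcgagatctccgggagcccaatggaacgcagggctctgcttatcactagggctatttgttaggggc

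All 9 genes matched a RefSeq promoter. GGGCGG occurred in 7 of the 9 windows and in 32.7% of 32851 mouse promoters of the same length. TGCGCA occurred in 3 of the 9, those of Upf1, Smg6 and Smg9, and in 6.43% of all. CCGGAA occurred in 2 of the 9, those of Upf1 and Smg8, and in 12% of all. CACGTG (the E-box), TGACGTCA (the cAMP response element) and TTCNNNGAA (the site of STAT factors, which act downstream of IL-2 receptors) occurred in 0 of the 9, against 6.02%, 1.55% and 7.02% of all promoters. The motifs were chosen after the sequences had been seen, and a match in these letters is a description only.

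The level of Upf1, the helicase, was 13.4, 14.3 and 11.5 scaled TPM in the 3 EV no IL-2 libraries. With soluble IL-2 it was 12.5, 10.2 and 14.0, and in 1G12t 14.2, 11.1 and 12.9. In 3A10t it was 6.16, 3.01 and 5.42, below each of the other 9 libraries, whose lowest value was 10.2. The 3A10t libraries of the 3 sorts held 0.460, 0.211 and 0.470 of the Upf1 level of the EV no IL-2 library of the same sort. The log2 fold change was −1.30 ± 0.20 (SE) against EV no IL-2, −1.26 ± 0.20 against 1G12t and −1.21 ± 0.20 against EV+IL-2, each with 3 libraries a group. No test of these is given, since the genes were chosen for this pattern. The gene lies at chr8:70331525-70353278 of GRCm38 on the minus strand, and none of its annotated transcripts is itself classed as an NMD substrate. The opposite-strand genes Cers1 and Gdf1, which overlap it, had mean levels of 0.493 and 0.111 scaled TPM.

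Upf1 was tested in 1 comparison, 1G12t against EV+IL-2, since neither group was in the contrast that chose the genes. The log2 fold change was 0.05 (95% interval −0.39 to 0.50, adjusted p = 0.89), so a difference was not detected, and the interval holds differences of up to 0.50. EV+IL-2 and 1G12t Upf1 levels overlapped those of EV no IL-2.

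**Figure D1:**
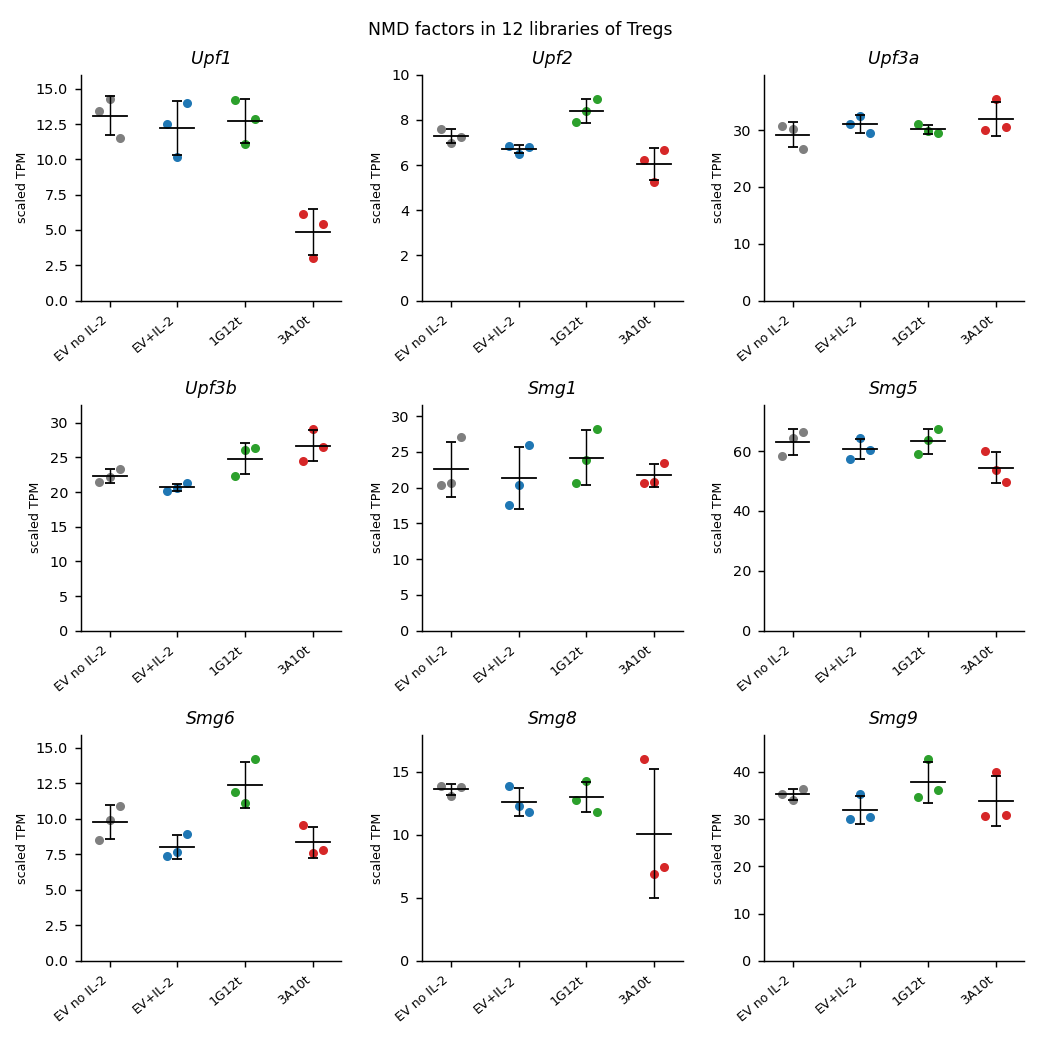
Scaled TPM (vertical axis, from 0) of the 9 NMD genes in the 4 groups (horizontal axis), 1 point per library, with the mean as a long bar and the SD of 3 libraries as the error bar. Upf1 is low in all 3 3A10t libraries, from 3.01 to 6.16, and Smg8 is at 16.0 in 1 3A10t library and at 6.89 and 7.42 in the others.

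Upf2, the adaptor between Upf1 and Upf3b, had the lowest level of the 9 genes in 3 of the 4 groups. EV no IL-2 libraries held 7.62, 6.99 and 7.26 scaled TPM, EV+IL-2 libraries 6.85, 6.49 and 6.80, 1G12t libraries 7.89, 8.38 and 8.94 and 3A10t libraries 6.22, 5.26 and 6.66. The 1G12t libraries were the 3 highest of the 12, and the 3A10t libraries overlapped EV+IL-2 only. Upf1 exceeded Upf2 by 1.33 to 2.06 times in the 9 other libraries, and in 3A10t the ratio of Upf1 to Upf2 was 0.990, 0.572 and 0.814. In 3A10t, Upf1 was therefore the lowest of the 9 genes by its mean, although its range overlapped that of Upf2. Upf2 lies at chr2:5951469-6056703 on the plus strand.

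Upf3b carries the link to the exon junction complex. EV no IL-2 libraries held 21.4, 22.2 and 23.3 scaled TPM of it, EV+IL-2 libraries 20.2, 20.6 and 21.3, 1G12t libraries 22.3, 26.0 and 26.3 and 3A10t libraries 24.5, 29.1 and 26.5. The 3A10t values all exceeded the EV no IL-2 and EV+IL-2 values. The paralog Upf3a stayed between 26.7 and 35.5 in all 12 libraries, a CV of 6.71%, the smallest of the 9 genes. Upf3b lies at chrX:37091678-37110322 on the minus strand and Upf3a at chr8:13785615-13799193 on the plus strand.

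Smg1, the kinase, was 17.6 to 28.2 over the 12 libraries. Group means ± SD (n = 3) were 22.6 ± 3.84 for EV no IL-2, 21.3 ± 4.32 for EV+IL-2, 24.2 ± 3.79 for 1G12t and 21.7 ± 1.61 for 3A10t. Its partner Smg9 was 30.1 to 42.7. Its other partner Smg8 was 11.8 to 14.3 in the 9 libraries outside 3A10t, and 16.0, 6.89 and 7.42 in the 3A10t libraries of sorts 1, 2 and 3. The 3A10t values of Smg8 thus included both the highest and the lowest of the 12.

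Smg6, the endonuclease, read 8.51, 9.93 and 10.9 for EV no IL-2, 7.41, 7.67 and 8.95 for EV+IL-2, 11.9, 11.1 and 14.2 for 1G12t and 9.57, 7.63 and 7.83 for 3A10t. The 3 1G12t libraries were above all the others. Smg5 had the highest level of the 9 genes in every group, 63.0 ± 4.29 for EV no IL-2, 60.7 ± 3.46 for EV+IL-2, 63.3 ± 4.23 for 1G12t and 54.5 ± 5.18 for 3A10t (SD, n = 3). Its 3A10t values of 60.0, 53.7 and 49.7 included the 2 lowest of the 12. Smg9 and Upf3a came next in each group's order, and they overlapped each other in EV+IL-2 and 3A10t but not in EV no IL-2 or 1G12t. Upf1 and Smg8 did not differ beyond their ranges in the 3 groups other than 3A10t.

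The comparison of 1G12t with EV+IL-2 sets cells with the 1G12 tether beside cells in soluble IL-2, and neither group entered the choice of the genes. Only 0.0199% of all genes were called between 1G12t and EV no IL-2. The comparison with EV+IL-2 is thus not read as tethered against soluble IL-2 signaling. Smg6 was higher in 1G12t by 0.57 ± 0.13 (SE) on the log2 scale, a 1.49-fold difference on the scaled TPM + 1 scale (adjusted p = 0.0098, limma). It was the 1 gene of the 9 that was called, against 20.6% of all genes tested in either direction, 9.69% higher and 10.9% lower. Upf2 at 0.28 ± 0.093 (adjusted p = 0.054) and Upf3b at 0.25 ± 0.089 (adjusted p = 0.074) were not called, though their 3 1G12t libraries were above all 3 EV+IL-2 libraries. With the replicate block, which uses the shared sort, Upf3b was called (adjusted p = 0.048) and Upf2 was not (adjusted p = 0.050), so the count was 2 in place of 1. Without 1G12t replicate 1 or 3A10t replicate 1 the count was also 2, and without 3A10t replicate 2 it was 3, with Upf2 added. The Smg6 call was kept under all 23 alternatives, with adjusted p between 0.0048 and 0.046. Smg6 overlaps Srr, the serine racemase gene, on the opposite strand, and the library protocol does not mark strand, so reads of the shared stretch cannot be told apart. Srr was 7.66 ± 0.944 in EV+IL-2 and 8.21 ± 0.963 in 1G12t (SD, n = 3). Other opposite-strand genes that overlap Smg6 and had signal were at lower levels, with higher means in 1G12t. Gm12335 was 1.5 ± 0.346 in EV+IL-2 and 3.39 ± 1.43 in 1G12t, and Gm28180 0.123 ± 0.107 and 0.668 ± 0.122. Gm12333 was 0.251 ± 0.0454 and 0.654 ± 0.221, and Rps12-ps19 0.234 ± 0.204 and 0.576 ± 0.0963. The part of such reads in the Smg6 difference was not tested.

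The comparison of 3A10t with 1G12t sets the 2 tethered variants side by side. Of the 8 genes tested, Smg6 and Upf2 fell and none rose, against 4.27% of all genes called, 1.3% higher and 2.96% lower. Smg6 fell by 0.52 (SE 0.13, adjusted p = 0.048) and Upf2 by 0.42 (SE 0.093, adjusted p = 0.040), and the 3 3A10t libraries of each were below the 3 1G12t libraries. Neither call was firm. Each was lost when any 1 of 11 libraries was left out, with adjusted p between 0.059 and 0.13, and both were kept without 3A10t replicate 1, with adjusted p of 0.0090 for Smg6 and 0.014 for Upf2. Without that library Smg8 fell by 0.77 (adjusted p = 0.00086) and Smg5 by 0.28 (adjusted p = 0.043). With it, Smg8 was at −0.42 (adjusted p = 0.26) and Smg5 at −0.21 (adjusted p = 0.15). The share of all genes called without 3A10t replicate 1 is not given, so nothing is read from how many of the 8 were called then. Since the 1G12t libraries enter this comparison and the previous one, the high 1G12t level of Smg6 is part of both.

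Set against soluble IL-2, Upf3b was higher in 3A10t by 0.35 (SE 0.089, adjusted p = 0.017), and none of the other 7 genes tested was called. Of all genes, 23.4% were called, 10.3% higher and 13.0% lower. The call was lost without EV+IL-2 replicate 1 (adjusted p = 0.070), EV+IL-2 replicate 2 (0.056) or 3A10t replicate 2 (0.052). Without 3A10t replicate 1, Upf3b was at 0.41 (adjusted p = 0.0065), and Smg8 fell by 0.74 (adjusted p = 0.00052), against −0.39 (adjusted p = 0.26) with it.

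Soluble IL-2 in EV cells went with no call. Between EV+IL-2 and EV no IL-2, limma called 0 of the 8 genes tested, against 13.3% of all genes called, 8.17% higher and 5.13% lower. At an unadjusted p under 0.05 it was 0 of the 8, against 26.3% of all genes. The median of the 8 genes was −0.10 on the log2 scale, beside −0.014 for all genes. Between 1G12t and EV no IL-2, limma called 0 of 8, against 0.0199% of all genes. At an unadjusted p under 0.05 it was 1 of the 8, against 7.04% of all genes, so nothing is read from it. That 1 gene was Smg6, at 0.32 ± 0.13 (SE), with adjusted p = 0.70 and its 3 1G12t libraries above the 3 EV no IL-2 libraries.

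For 3A10t against EV no IL-2, the comparison that the choice rests on, no test is given for any of the 9 genes. The 3A10t libraries were below all EV no IL-2 libraries for 2 of the 9, Upf1 and Upf2, and above them for 1, Upf3b, and they overlapped for the other 6. Of all genes, 12.1% were below and 13.3% above in this way, so nothing is read from those counts. The log2 fold changes were −0.24 for Upf2, −0.21 for Smg5, −0.49 for Smg8 and 0.25 for Upf3b, and the median of the 9 was −0.20 beside 0.026 for all genes.

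**Figure D2:**
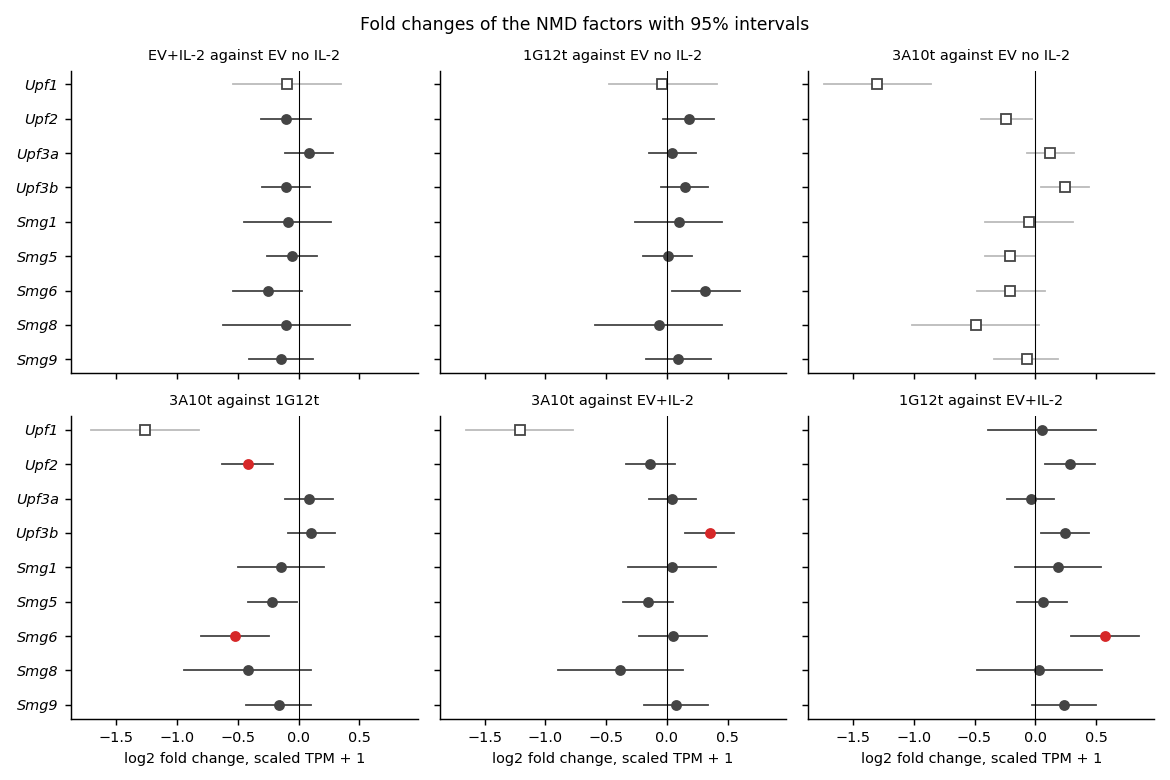
Log2 fold change on scaled TPM + 1 (horizontal axis) of the 9 genes in 6 comparisons, with 95% intervals from limma. Filled circles were tested, red ones had an adjusted p under 0.05, and open squares are given with no test. Red marks stand at Upf2 and Smg6 in 3A10t against 1G12t, Upf3b in 3A10t against EV+IL-2 and Smg6 in 1G12t against EV+IL-2.

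Fold changes varied with transcript length across all genes, in comparisons with and without 3A10t. With protein-coding genes in 10 groups by their longest annotated transcript, the median log2 fold change of 3A10t against EV no IL-2 ran from 0.22 in the shortest group to −0.18 in the group of 4392 to 5150 bases, which holds Upf1 (4618 bases) and Smg5 (4448 bases), and was −0.05 in the longest group, which holds Smg1. In 3A10t against 1G12t it ran from 0.26 in the shortest group to −0.23 in the 2 longest, of which the group of 5151 to 6658 bases holds Upf2 and Smg6. In 1G12t against EV+IL-2 it ran the other way, from −0.12 in the shortest group to 0.17 in the longest, with 0.07 in the group of Upf2 and Smg6. In 1G12t against EV no IL-2 it lay between −0.06 and 0.04 in all groups but the longest, where it was 0.15. Once the trend on length was removed, the fold change of Upf1 against EV no IL-2 was −1.13, a description only, since that value chose the genes. In 3A10t against 1G12t, Smg6 was then at −0.31 (adjusted p = 0.094) and Upf2 at −0.22 (adjusted p = 0.16), and neither was called. Upf3b against EV+IL-2 stayed at 0.35 (adjusted p = 0.025), and Smg6 in 1G12t against EV+IL-2 stayed called at 0.49 (adjusted p = 0.0048). What underlies the length trend was not tested.

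**Figure D3:**
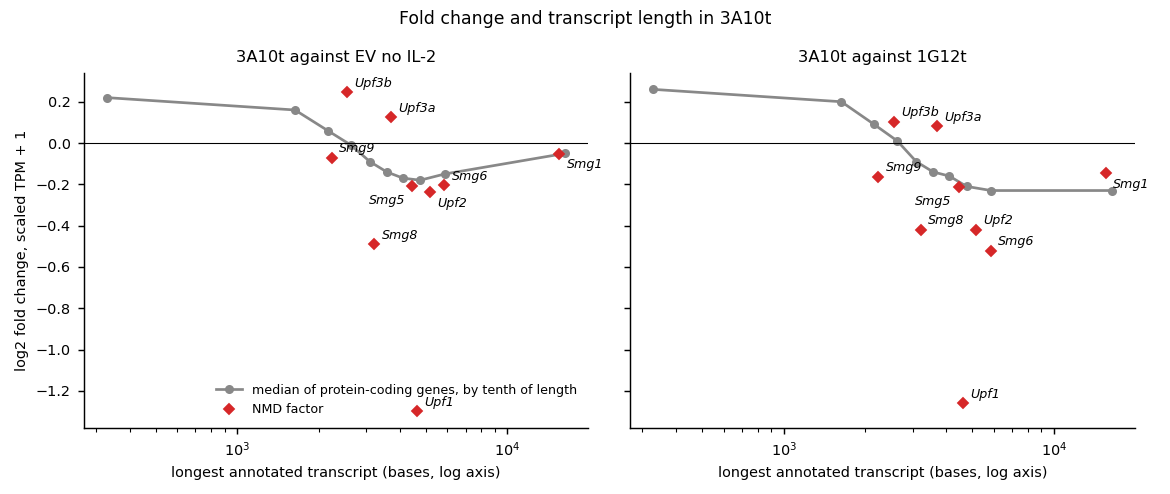
Log2 fold change on scaled TPM + 1 (vertical axis) against the longest annotated transcript in bases (horizontal log axis) for 3A10t against EV no IL-2 (left) and against 1G12t (right). Grey points joined by a line are medians of protein-coding genes in 10 length groups, and red diamonds are the 9 NMD genes. The grey medians run from 0.22 to −0.18 on the left and from 0.26 to −0.23 on the right. Upf1 is at −1.30 and −1.26, and its low 3A10t level is how the genes were chosen.

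Other genes of NMD and of the exon junction complex formed a list of 21, of which 20 were tested. With IL-2 in EV cells, 2 rose, Ncbp2 by 0.62 (adjusted p = 0.0018) and Magohb by 0.57 (adjusted p = 0.042), and none fell, against 8.17% of all genes higher and 5.13% lower. Ncbp2 is a subunit of the nuclear cap-binding complex and Magohb a core protein of the exon junction. Ncbp2 was lower in 1G12t than in EV+IL-2 by 0.71 (adjusted p = 0.00073). It was the 1 gene of the 20 called there, against 10.9% of all genes lower and 9.69% higher. From EV+IL-2 to 3A10t, 3 of the 20 fell and none rose, against 13.0% of all genes lower and 10.3% higher. Gspt1, a release factor of translation termination, was at −0.76 (adjusted p = 0.021), and Dhx34, a helicase that aids Upf1, at −0.63 (adjusted p = 0.0050). Ncbp2 was at −0.48 (adjusted p = 0.0067). Dhx34 also fell by 0.59 from 1G12t to 3A10t (adjusted p = 0.037), and this call was kept in 6 of 23 alternatives. It was the 1 gene of the 20 called there, against 2.96% of all genes lower and 1.3% higher. Dhx34 was 18, 18.9 and 17.1 in EV no IL-2 and 14.7, 10.2 and 10.2 in 3A10t. Between 1G12t and EV no IL-2, limma called 0 of the 20, against 0.0199% of all genes.

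The 45 genes of decapping, deadenylation and the exosome, the enzymes that finish the decay, were all tested. From EV+IL-2 to 3A10t, 8 of the 45 fell and 1, the decapping activator Dcp1b, rose by 0.38 (adjusted p = 0.014), against 13.0% of all genes lower and 10.3% higher. The largest decreases were Dis3, the exosome nuclease, at −0.92 (adjusted p = 0.0030), Ttc37, a scaffold of the exosome's helicase complex, at −0.71 (adjusted p = 0.0013), Edc4, a decapping scaffold, at −0.70 (adjusted p = 0.035), and Cnot1, the scaffold of the main deadenylase, at −0.61 (adjusted p = 0.042). The calls of Dis3 and Ttc37 were kept in all 23 alternatives, that of Edc4 in 13 and that of Cnot1 in 11. The 3A10t replicate 1 value lay within the EV+IL-2 range for Edc4 (69.5, against 67.3 to 81.0) and Cnot1 (29.8, against 27.9 to 43.1). In 3A10t against 1G12t, 5 fell and 1 rose, against 2.96% of all genes lower and 1.3% higher. Cnot1 was at −0.80 (adjusted p = 0.046), Dis3 at −0.67 (adjusted p = 0.049), the helicase Ddx6 at −0.56 (adjusted p = 0.031) and Cnot3 at −0.46 (adjusted p = 0.036). Pan2, a deadenylase subunit, was the fifth to fall, at −0.44 (adjusted p = 0.049), and Lsm6 rose by 0.39 (adjusted p = 0.045). Dis3 was 11.9, 12.8 and 14.7 in EV no IL-2 and 11.9, 6.96 and 7.92 in 3A10t, where replicate 1 lay apart from replicates 2 and 3 and within the EV no IL-2 range. From EV+IL-2 to 1G12t, Pan2 rose by 0.43 (adjusted p = 0.017), and 3 fell, Lsm2, Lsm4 and Lsm6, which are parts of the ring that binds shortened poly(A) tails. Of all genes, 9.69% were called higher and 10.9% lower there. Lsm4 fell by 0.49 (adjusted p = 0.017), Lsm2 by 0.49 (adjusted p = 0.035) and Lsm6 by 0.48 (adjusted p = 0.0049). With IL-2 in EV cells, Lsm4 rose by 0.42 (adjusted p = 0.048) and Lsm6 by 0.36 (adjusted p = 0.026). The medians of the 45 genes for 3A10t were −0.15 against EV no IL-2, −0.14 against 1G12t and −0.10 against EV+IL-2, beside 0.026, −0.017 and 0.0 for all genes.

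One library weighed on these counts. The 3 lists had 20 and 45 genes tested above and 25 in the list below. Over them together, 8 genes were called in 3A10t against 1G12t, beside 4.27% of all genes. Without 3A10t replicate 1 the count was 47, whereas leaving out any other library left 0 to 3. For 3A10t against EV+IL-2 the count was 17, beside 23.4% of all genes. It became 38 without 3A10t replicate 1 and 10 without EV+IL-2 replicate 1 or 3. Between EV+IL-2 and EV no IL-2 the count was 11, beside 13.3% of all genes. It became 17 without 3A10t replicate 1, 7 without 1G12t replicate 2, and 5 or 6 without any 1 of the 6 EV libraries. With the length trend removed, 1 gene was called in 3A10t against 1G12t. The share of all genes called in these altered fits is not given, so nothing is read about the lists from how the counts moved.

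Transcripts known as NMD targets, a list of 26 that holds small nucleolar RNA hosts, stress genes and splicing factors with poison exons, had 25 members tested. For some of these genes only a part of the transcripts is of the NMD class, such as 1 of 8 for Srsf7, 1 of 7 for Rpl3 and 2 of 7 for Srsf1. TPM per gene sum over all transcripts, so a change in such a gene need not be a change in its NMD isoform. For Gas5, Snhg15, Cdkn1a, Gadd45a, Gadd45b and Atf4, 0 annotated transcripts are of the NMD class. With IL-2 in EV cells, 7 of the 25 rose and none fell, against 8.17% of all genes higher and 5.13% lower. Cdkn1a, the cell cycle inhibitor, rose by 1.99 (adjusted p = 0.00022), the host RNA Snhg15 by 0.59 (adjusted p = 0.0057), Rpl3, a ribosomal protein, by 0.50 (adjusted p = 0.0055) and the splicing factor Srsf7 by 0.49 (adjusted p = 0.0040). From EV+IL-2 to 1G12t, 7 fell and none rose, against 10.9% of all genes lower and 9.69% higher, with Cdkn1a at −1.5 (adjusted p = 0.0014), Rpl3 at −0.53 (adjusted p = 0.0032), Srsf7 at −0.53 (adjusted p = 0.0020) and Snhg15 at −0.48 (adjusted p = 0.013). From EV+IL-2 to 3A10t, 5 fell and none rose, against 13.0% of all genes lower and 10.3% higher, with Cdkn1a at −1.33 (adjusted p = 0.0027), Srsf1 at −0.59 (adjusted p = 0.012), Srsf7 at −0.54 (adjusted p = 0.0018) and Snhg15 at −0.44 (adjusted p = 0.019). The fifth was the splicing factor Tra2a at −0.42. These 3 comparisons share the EV+IL-2 libraries. In 3A10t against 1G12t, Srsf1 fell by 0.68 (adjusted p = 0.034) and no other gene of the 25 was called, against 2.96% of all genes lower. Between 1G12t and EV no IL-2, limma called 0 of the 25, against 0.0199% of all genes.

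The values of 4 targets are given for each library or group. The level of Gas5, a host RNA with a short reading frame, was 352, 362 and 330 for EV no IL-2 and 387, 418 and 385 for 3A10t. For EV+IL-2 it was 427, 422 and 422, and for 1G12t 340, 335 and 339. Every 3A10t value of Gas5 thus exceeded the 1G12t and EV no IL-2 values and lay under the EV+IL-2 values. Gas5 rose by 0.28 in EV+IL-2 against EV no IL-2 (adjusted p = 0.011) and was at 0.23 in 3A10t against 1G12t (adjusted p = 0.055). Gadd45b, a stress gene, was 14.9, 11.1 and 12.7 for EV no IL-2, 16.5, 16.5 and 16.2 for EV+IL-2, 14.3, 12.6 and 16.6 for 1G12t and 16.8, 20.7 and 16.4 for 3A10t. It was not called in any comparison tested. Its relative Gadd45a was 15.4, 12.7 and 13.7 in EV no IL-2 and 15.0, 16.2 and 16.2 in 3A10t, which overlap. Gadd45a fell by 0.46 from EV+IL-2 to 1G12t (adjusted p = 0.018). Atf4, the stress transcription factor, was 46.1 to 51.1 in EV no IL-2 and 49.9 to 60.1 in 3A10t, which also overlap, and it was not called in any comparison tested. Relative to EV no IL-2, the median of the 25 targets was 0.11 for 3A10t and 0.21 for EV+IL-2, beside 0.026 and −0.014 for all genes.

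**Figure D4:**
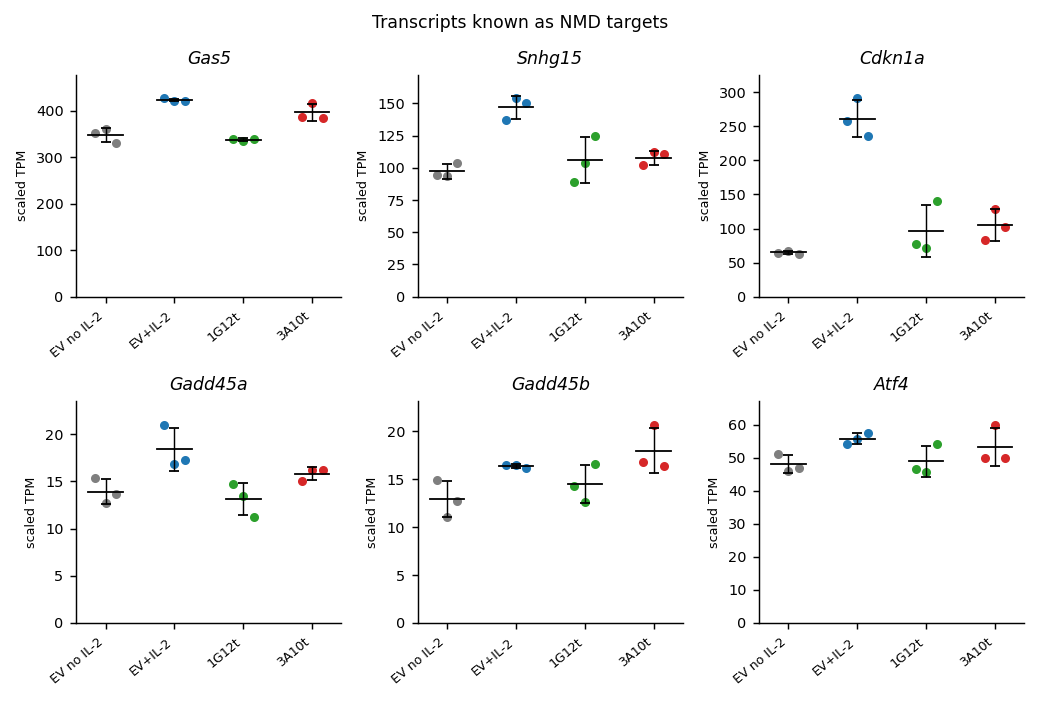
Scaled TPM (vertical axis, from 0) of 6 transcripts known as NMD targets in the 4 groups (horizontal axis), 1 point per library, with the mean as a long bar and the SD of 3 libraries as the error bar. The levels of Gas5, Snhg15 and Cdkn1a are highest in EV+IL-2, and Gas5 in 3A10t lies between EV no IL-2 and EV+IL-2.

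The genes whose levels most resembled that of Upf1 over the 12 libraries, among 10042 genes whose TPM averaged 5 or more, were Atp2a2 (Pearson r 0.971), Zfp384 (0.971), Atp8b2 (0.966), Eif2ak3 (0.964), Prpf8 (0.962) and Sbk1 (0.957). These r are over 12 libraries of 4 groups that share 1 pool of cells, and the low 3A10t libraries carry much of them. Over the 9 libraries without 3A10t, r with Upf1 was 0.71 for Atp2a2, 0.49 for Zfp384, 0.19 for Atp8b2, 0.38 for Eif2ak3, 0.64 for Prpf8 and 0.75 for Sbk1. Atp2a2, the calcium pump of the endoplasmic reticulum, was 28.8, 28.8 and 31.3 in EV no IL-2 and 14.5, 6.08 and 13.9 in 3A10t. Prpf8, a core protein of the spliceosome, was 28.8, 32.7 and 26.7 in EV no IL-2 and 21, 10.3 and 13 in 3A10t. Among the NMD genes themselves, r with Upf1 over the 12 libraries was 0.74 for Upf2, 0.69 for Smg8, 0.63 for Smg5, 0.45 for Smg6, 0.12 for Smg1, −0.12 for Smg9, −0.57 for Upf3a and −0.72 for Upf3b. Over the 9 libraries without 3A10t the same r lay between −0.49 and 0.21.

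**Figure D5:**
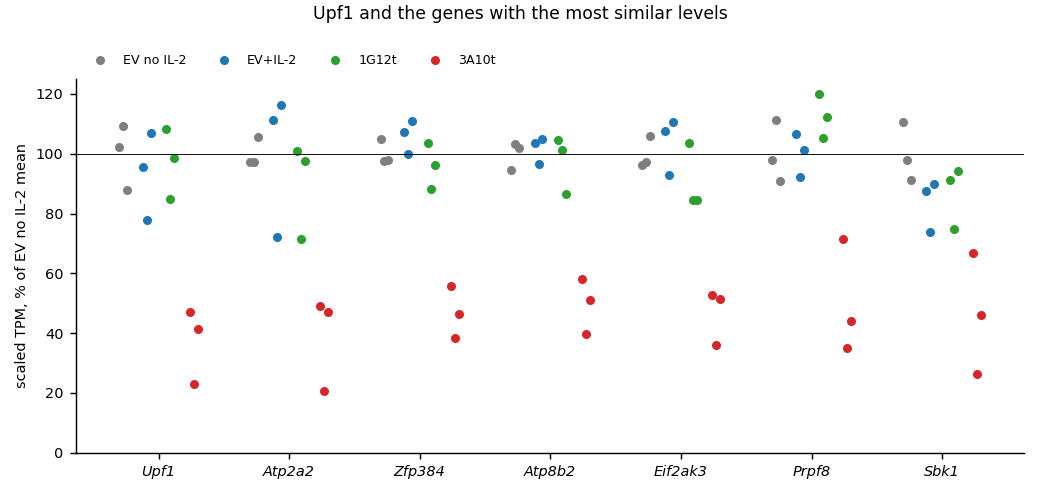
Scaled TPM as a percent of the EV no IL-2 mean (vertical axis, from 0) for Upf1 and the 6 genes most like it (horizontal axis), 1 point per library, coloured by group. The 3 3A10t libraries lie below the line at 100 for each gene, which the choice of genes by their likeness to Upf1 largely fixes.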

How the data were processed

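RNA was measured in 12 libraries of mouse Tregs, 3 in each of 4 groups, grouped by the sample labels. Full-length cDNA was primed on oligo-dT and fragmented with a transposase. The authors deposited TPM for 55228 gene symbols, which they made by trimming with cutadapt 1.18, alignment to GRCm38 (mm10) with STAR 2.5.3 and estimation with RSEM 1.3.0. TPM hold no read number, so no counting error can be given. The authors' counts, tested with DESeq2 1.26, were not used here, and so a log-scale test was used.

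TPM were divided by median-of-ratios factors, and limma (lmFit, then eBayes with a trend) was run on log2(scaled TPM + 1) of the 15043 genes whose TPM averaged 1 or more, with 1 mean per group and all 12 libraries in the fit. A gene was called at a Benjamini-Hochberg adjusted p under 0.05 over all genes tested. Fold changes on this scale understate the change of low genes. In 3A10t against EV no IL-2, adjusted p served only to choose Upf1, and no test is given for the 9 genes or the lists. Upf1 was tested only in 1G12t against EV+IL-2. Positions and lengths are from GENCODE M21 on GRCm38, promoters from RefSeq (GRCm38.p6).

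The 9 genes and the 3 lists were chosen with earlier results of these data known. Named genes were the 9 genes, per list and comparison up to 4 called genes with the largest fold change, Gas5, Gadd45a, Gadd45b and Atf4, and the 6 genes most correlated with Upf1. One more gene that this rule names is not reported here. Dcp1b in 3A10t against EV+IL-2, Lsm6 and Pan2 in 3A10t against 1G12t and Tra2a were named after their values were seen. The replicate number marks a shared sort by the labels. Deviations from the group means correlated by 0.041 on average in 18 pairs of libraries with the same number (−0.11 to 0.15) and by −0.020 in 36 pairs with different numbers. Alternatives were other pseudocounts (0.1 and 5), filters, scalings and variance models, only the 6 libraries compared, the replicate block, a lowess correction for length (span 0.3) with or without that block, and leaving out 1 library at a time. The code was tested on simulated data. R 4.3.3, limma 3.58.1, Python 3.11.15, pandas 2.3.3 and matplotlib 3.10.9 were used.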

Additional observations from a re-analysis of the deposited data

How the results depend on the processing

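The Smg6 call in 1G12t against EV+IL-2 was kept in all 23 alternatives, and 0 members were called in EV+IL-2 against EV no IL-2 or in 1G12t against EV no IL-2 in any of them. In 3A10t against 1G12t the count of 2 became 1 with a pseudocount of 5, and 0 without a filter on low TPM, with only the 6 libraries compared, with quantile normalization, without a trend in eBayes, and with the length correction alone or with the replicate block. It was 0 to 4 with 1 library left out. In 3A10t against EV+IL-2 the count of 1 became 0 with TPM as deposited and with only the 6 libraries compared, and was 0 to 2 with 1 library left out. In 1G12t against EV+IL-2 the count of 1 became 4 with TPM as deposited and 2 without a filter, with the replicate block, and with the length correction and the replicate block. It was 1 to 3 with 1 library left out. The replicate block changed no other call of the 9 genes. Why these counts moved was not tested, and the share of all genes called under each alternative is not given. The Upf1 fold change in 3A10t against EV no IL-2 lay between −1.46 and −0.88 in all alternatives. With 1 library left out, Upf1 ranged from −0.122 to 0.0484 in 1G12t against EV no IL-2, from −0.185 to 0.0222 in EV+IL-2 against EV no IL-2 and from −0.0653 to 0.144 in 1G12t against EV+IL-2. That of Upf1 in 1G12t against EV no IL-2, −0.04, turned to 0.00257 with TPM as deposited and to 0.021 and 0.0484 without EV no IL-2 replicate 2 and 1G12t replicate 2. In EV+IL-2 against EV no IL-2 it turned from −0.09 to 0.0222 without EV+IL-2 replicate 2. In 1G12t against EV+IL-2 it turned from 0.05 to −0.0653 without EV+IL-2 replicate 2 and to −0.0179 without 1G12t replicate 1.

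Over the 3 lists, the count in EV+IL-2 against EV no IL-2, 11, became 6 without a filter and 22 with only the 6 libraries compared, and 5 to 17 with 1 library left out. In 3A10t against 1G12t, 8 became 0 without a filter, 13 with a mean TPM of at least 5, 15 with TPM as deposited, 0 with only the 6 libraries compared, 4 with quantile normalization, 2 without a trend, 1 with the length correction and 1 with that and the replicate block, and 0 to 47 with 1 library left out. In 3A10t against EV+IL-2, 17 became 8 with only the 6 libraries compared, and 10 to 38 with 1 library left out. TPM give no depth, so what depth limits cannot be stated, and 3 cultures of 1 pool a group limit the precision of every value.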

Other observations

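GENCODE M21 marks 3366 of the tested protein-coding genes as having at least 1 transcript of the NMD class, and 7666 as having none. Their median log2 fold changes in 3A10t against EV no IL-2 were −0.031 and −0.003, and in EV+IL-2 against EV no IL-2 −0.021 and −0.010. The genes with such a transcript have a longer median longest transcript, 3677 against 3170 bases. TPM per gene sum over all transcripts, so the level of an NMD isoform itself is not measured here.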
